A study of Mus musculus with 8 samples.

Results

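The 10 genes of the neuronal cytoskeleton described here, out of 15094 genes named on the platform, were measured on 8 two-colour arrays. They were taken by symbol from the platform annotation, which holds 1 probe for each, so that 10 of 21582 probes belong to them. Dcx and Macf1 lead the list because their log2 ratios lay low on most or all arrays in an earlier look at these same data. These 2 were chosen by the mean of their log2 ratios over the arrays, and the list was drawn up with those values known. The mean of a gene's log2 ratio over the arrays is therefore given below as a description, with no test. Of the 10 probes 7 had ratios on enough arrays for the fit over the whole table, and the other 3, for Tubb3, Stmn2 and Nefl, are described by their values, and Tubb3 and Nefl also by a fit with a looser minimum of arrays.

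Neurospheres are balls of neural stem cells and progenitors that grow in suspension. These came from embryonic mouse cortex at gestational day 12.5 and were fed basic fibroblast growth factor, epidermal growth factor and leukaemia inhibitory factor. Control cultures received no ethanol. In the exposed cultures the growth medium held 320 mg/dl ethanol for 5 days of proliferation. Differentiation followed by withdrawal of epidermal growth factor and leukaemia inhibitory factor with fibroblast growth factor kept and lasted 3 days in the exposed cultures, with the ethanol taken away. The labels do not give the strain or say whether arrays hold independent cultures. P-values therefore measure the spread between arrays, which may be technical. Every array carried control and exposed RNA together. Exposed RNA was labelled with Cy3 on replicates 1 to 4 and with Cy5 on replicates 5 to 8, 4 arrays of each orientation.

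A growing neuron is built on microtubules, hollow polymers of alpha- and beta-tubulin that carry cargo along the axon and pull the nucleus forward during migration. Microtubule-associated proteins stabilise them, and stathmins bind free tubulin and promote disassembly. The dynein motor with its regulator Lis1 moves along microtubules, plakins such as Macf1 tie them to actin, and neurofilaments fill the axon. In the developing cortex, loss of doublecortin or of Lis1 disturbs neuronal migration, and both genes are known from human lissencephaly. Tubb3, Dcx, Stmn2 and Gap43 are among the usual markers of young neurons.

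The 2 genes that lead the list are shown with the 250 bases before a listed start site, the outermost one where a gene has several. Whether the transcripts that the probes measure begin there was not checked. The windows come from RefSeq, build GRCm38.p6, where 5 of the 10 genes had an entry (Dcx, Macf1, Map1b, Pafah1b1 and Tubb3). They are written 5′ to 3′ on the strand of the gene. Dcx lies on the X chromosome, with the window at chrX:143933220-143933469 on the minus strand. The Macf1 window is chr4:123684361-123684610, also on the minus strand, and belongs to the 1 start site listed for that gene. Capitals mark the E-box CANNTG, the core motif of basic helix-loop-helix factors, which reads the same on both strands.
Dcx: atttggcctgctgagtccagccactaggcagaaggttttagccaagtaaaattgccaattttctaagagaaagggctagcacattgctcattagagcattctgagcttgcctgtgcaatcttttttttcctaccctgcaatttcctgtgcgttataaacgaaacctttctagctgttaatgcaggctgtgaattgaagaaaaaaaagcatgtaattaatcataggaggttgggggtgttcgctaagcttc
Macf1: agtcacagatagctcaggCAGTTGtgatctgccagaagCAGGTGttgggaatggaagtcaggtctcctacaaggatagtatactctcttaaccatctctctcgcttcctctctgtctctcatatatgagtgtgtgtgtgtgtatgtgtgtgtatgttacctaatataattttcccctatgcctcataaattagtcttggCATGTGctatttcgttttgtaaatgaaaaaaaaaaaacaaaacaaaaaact
The Macf1 window held 3 E-boxes and the Dcx window none. The motif is common, as 66.2% of the 32851 windows of this length in the table hold at least 1. A match is a run of letters and not a binding site, and its absence says only that these letters are not in this window.

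The deposited values are log2 ratios of the 2 channels, and each array was centred on the median of its ratios, so that 0 is the middle of an array. No source used here says which condition or which dye was divided by which. Each gene's mean ratio was therefore taken apart into a shared part, the average of the 2 orientation means, and a turning part, the Cy5 orientation's mean minus the Cy3 orientation's mean, divided by 2. If every ratio was formed between conditions, ethanol acts in the shared part. If every ratio was formed between dyes, ethanol acts in the turning part. The remaining part then holds the dye. All arrays with exposed RNA in Cy3 have codes in a and all with exposed RNA in Cy5 codes in b. The turning part thus also holds any difference between these sets of arrays, which cannot be told apart from the orientation. A sign says where the deposited ratio lies and never which culture held more transcript. A ratio also cannot tell fewer cells of a type from less of the transcript in each cell, and as it carries no expression level, the presence of neurons could not be checked against their markers.

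Macf1, the spectraplakin that links microtubules to actin filaments, had the lowest shared part of the 7. Its log2 ratios were -0.72, -1.64, -3.74 and -2.55 on replicates 1 to 4, with exposed RNA in Cy3. They were -3.52, -4.66, -5.16 and -2.04 on replicates 5 to 8, with exposed RNA in Cy5. All 8 arrays thus lay below 0, and the orientations overlapped. The Cy3 mean was -2.16 ± 1.29 (SD, n = 4) and the Cy5 mean -3.84 ± 1.39 (SD, n = 4). The shared part was -3.00 ± 0.45 (SE of the fit, n = 8), a ratio 8.01-fold away from the array median, and 8 of 15345 probes had a more negative one. Within each array the Macf1 ratio sat between the 0.358th percentile on replicate 7 and the 35.4th on replicate 1, and below the 10th percentile on 5 of the 8 arrays. Being negative on every array with a value was a trait of 1.75% of all tested probes, a share that describes how unusual the values used to choose Macf1 were and supports nothing.

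Macf1 was not chosen on its turning part, but a gene picked as low in both orientations has less room for a difference between them. The turning part of Macf1 is therefore not independent of the choice. It was -0.84 ± 0.45 (SE, n = 8) with a 95% interval from -1.83 to 0.15, and did not pass (limma, adjusted p = 0.452 over 15345 probes). In this part 239 of 15345 probes passed (1.56%). The 2 readings thus give different sizes for the ethanol difference of Macf1: 8.01-fold if the ratios were formed between conditions, and 1.79-fold, with an interval that includes 0 on the log2 scale, if they were formed between dyes. The 8.01-fold comes from the mean by which Macf1 was chosen, which favours a large size. The 1.79-fold does not come from that mean, but the choice may hold it down. The 2 sizes are therefore not alike, and the first has no test. Without the 3 arrays whose code ends in r (replicates 3, 4 and 8) the turning part of Macf1 was -1.63 (adjusted p = 0.391).

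Dcx encodes doublecortin, the microtubule-associated protein of migrating neurons. Its ratios with exposed RNA in Cy3 were -2.35, -1.83, -3.83 and -3.09. With exposed RNA in Cy5 they were -2.93, -0.49, -1.68 and 1.17. The first 4 arrays were all low, whereas the others ranged from low to above the median, with replicate 8 the only positive value of the 8. The Cy3 mean was -2.77 ± 0.87 (SD, n = 4) and the Cy5 mean -0.98 ± 1.74 (SD, n = 4). The shared part was -1.88 ± 0.46 (SE, n = 8), and 218 of 15345 probes had a more negative one. Dcx lay between the 1.25th percentile of its array on replicate 3 and the 79.4th on replicate 8. Its turning part was 0.89 ± 0.46 (SE, n = 8), with a 95% interval from -0.12 to 1.91, and did not pass (limma, adjusted p = 0.428). Without the r arrays the turning part was 0.19, and without replicate 8 alone it was 0.54, while the shared part was -1.89 and -2.24.

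**Figure D1:**
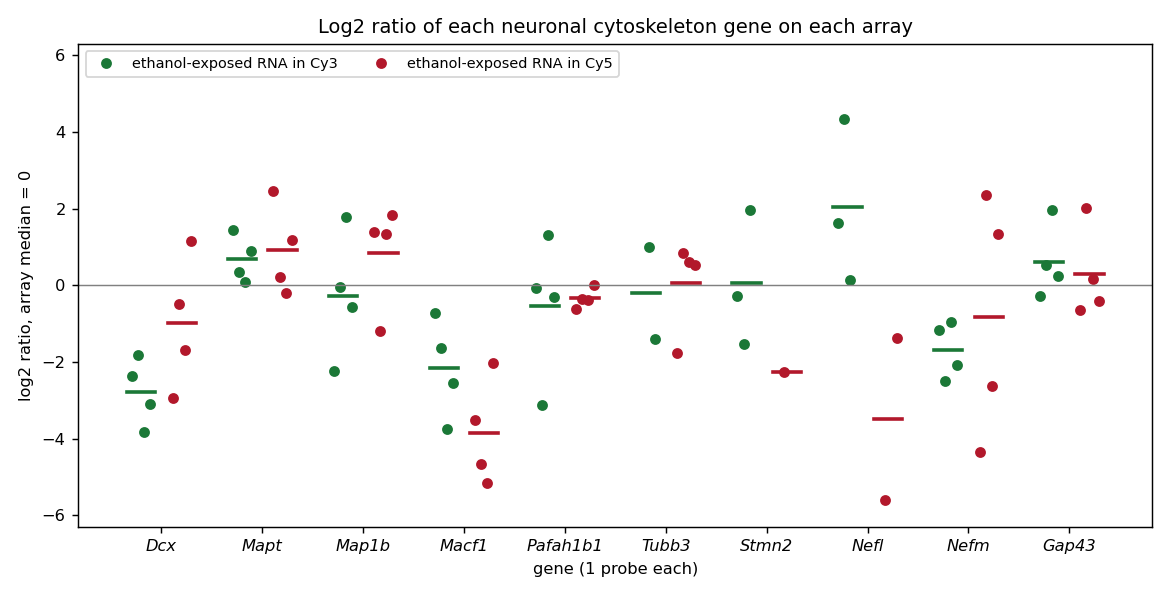
Log2 ratio (array median = 0) of each gene on each array, with green points for exposed RNA in Cy3, red points for exposed RNA in Cy5 and short lines for the orientation means. Macf1 lay below 0 on 8 of 8 arrays and Dcx on 7 of 8, whereas Nefm spread from -4.34 to 2.35. Missing points are values taken as missing, exact zeros or an array's highest value.

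Mapt and Map1b, the other microtubule-associated proteins of the list, did not lie where Dcx did. This was not tested, because Dcx was chosen for its low mean. Mapt encodes tau, which stabilises axonal microtubules. Its ratios were 1.44, 0.34, 0.08 and 0.90 with exposed RNA in Cy3, and 2.47, 0.21, -0.19 and 1.19 with exposed RNA in Cy5. Mapt was thus above 0 on 7 of 8 arrays, as many as Dcx was below it, with a shared part of 0.81 ± 0.36 (SE, n = 8). The turning part was 0.12 ± 0.36 (adjusted p = 0.925).

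Map1b encodes an early microtubule-associated protein of growing axons. Its ratios were -2.24, -0.04, 1.78 and -0.57 with exposed RNA in Cy3, and 1.39, -1.19, 1.35 and 1.83 with exposed RNA in Cy5. They fell on both sides of 0 in each orientation, 4 arrays below and 4 above, and 3 of the 4 Cy5 arrays lay close together while replicate 6 was low. The shared part was 0.29 ± 0.49 (SE, n = 8), and it was -0.05 without replicate 3 and -0.31 without the r arrays, so that its sign is not fixed. The turning part was 0.56 ± 0.49 (adjusted p = 0.680), and it was 0.23 without replicate 1 and 0.90 without replicate 3 or replicate 6.

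Pafah1b1 encodes Lis1, the regulator of cytoplasmic dynein. Its ratios were -0.07, -3.13, 1.32 and -0.30 with exposed RNA in Cy3. With exposed RNA in Cy5 they were -0.61, -0.35, -0.38 and 0.02. The Cy5 arrays were the tightest set among these genes, at -0.33 ± 0.26 (SD, n = 4), whereas the Cy3 arrays spread over -0.55 ± 1.87 (SD, n = 4). The shared part was -0.44 ± 0.44 (SE, n = 8) and rested on replicate 2, without which it was -0.01. The turning part was 0.11 ± 0.44 (adjusted p = 0.947).

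Neurofilaments are heteropolymers in which the light chain Nefl and the medium chain Nefm assemble together. Nefm had ratios of -1.16, -2.51, -0.96 and -2.09 with exposed RNA in Cy3. With exposed RNA in Cy5 they were -4.34, 2.35, -2.62 and 1.34. The first orientation was low on all 4 arrays, and the second held both the lowest and the highest value. The shared part was -1.25 ± 0.68 (SE, n = 8), ranging from -1.78 without replicate 6 to -0.66 without replicate 5. The spread around the orientation means was 2.31 on the log2 scale, larger than for 93.1% of tested probes. The turning part was 0.43 ± 0.68 (adjusted p = 0.830), with a 95% interval from -1.08 to 1.94.

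Nefl had ratios on 5 arrays. They were 1.62, 4.35 and 0.14 on replicates 1 to 3, and -5.61 and -1.37 on replicates 6 and 8. All 3 values with exposed RNA in Cy3 were above 0 and both values with exposed RNA in Cy5 were below it, so that the orientations did not overlap. On replicates 4 and 5 the probe held its array's highest value, and on replicate 7 it was exactly 0. Both kinds were taken as missing, though no source used here says what they mean. Read as a ratio, the highest value on replicate 5 would lie above 0, unlike the other Cy5 values. With a looser minimum of 2 arrays in each orientation Nefl could be fitted, and its turning part was -2.76 ± 0.84 (SE, n = 5), with a 95% interval from -4.73 to -0.79. It did not pass after adjustment over that table (limma, adjusted p = 0.237). The size depends on how its missing ratios are treated: the turning part was -1.94 ± 0.79 (SE, n = 6; adjusted p = 0.315) with exact zeros kept and -1.36 ± 2.99 (SE, n = 7; adjusted p = 0.881) with the highest values kept, where the 95% interval ran from -8.34 to 5.62. Values of the orientations did not overlap for 10.9% of all tested probes, which had 3 or more values in each orientation. Nefl had only 3 and 2, with which a lack of overlap arises more easily, so that this share is not a like background. Nefl and Nefm lie next to each other on the same chromosome, with 1 predicted gene, Gm19216, between them in the RefSeq table, but their ratios did not follow each other: on replicate 6 Nefl read -5.61 and Nefm 2.35.

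Tubb3, the beta-tubulin of neurons, had ratios of 1.00 and -1.41 on replicates 3 and 4. With exposed RNA in Cy5 it read -1.76, 0.83, 0.60 and 0.53. Replicate 5 stood well below the other 3 Cy5 arrays, which lay within a narrow band above 0. On replicates 1 and 2 the value was exactly 0 and was taken as missing. Fitted with the looser minimum, Tubb3 had a turning part of 0.13 ± 0.56 (SE, n = 6; adjusted p = 0.950).

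Stmn2, the neuronal stathmin of growth cones, had the fewest ratios: -0.29, -1.53 and 1.96 on replicates 1 to 3 and -2.25 on replicate 6. The other 4 arrays held exact zeros. With a single value in the Cy5 orientation nothing can be said of a difference between the orientations.

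Gap43 encodes a membrane protein of growth cones. Its ratios were -0.28, 0.53, 1.98 and 0.25 with exposed RNA in Cy3, and -0.64, 2.03, 0.17 and -0.40 with exposed RNA in Cy5. Most values lay within 1 of the array median, and 1 array of each orientation, replicates 3 and 6, stood higher. The shared part was 0.46 ± 0.39 (SE, n = 8), and it was 0.17 without replicate 6 and 0.23 without replicate 3. The turning part was -0.17 ± 0.39 (adjusted p = 0.896), and its sign changed under 4 of 18 alternative settings.

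**Figure D2:**
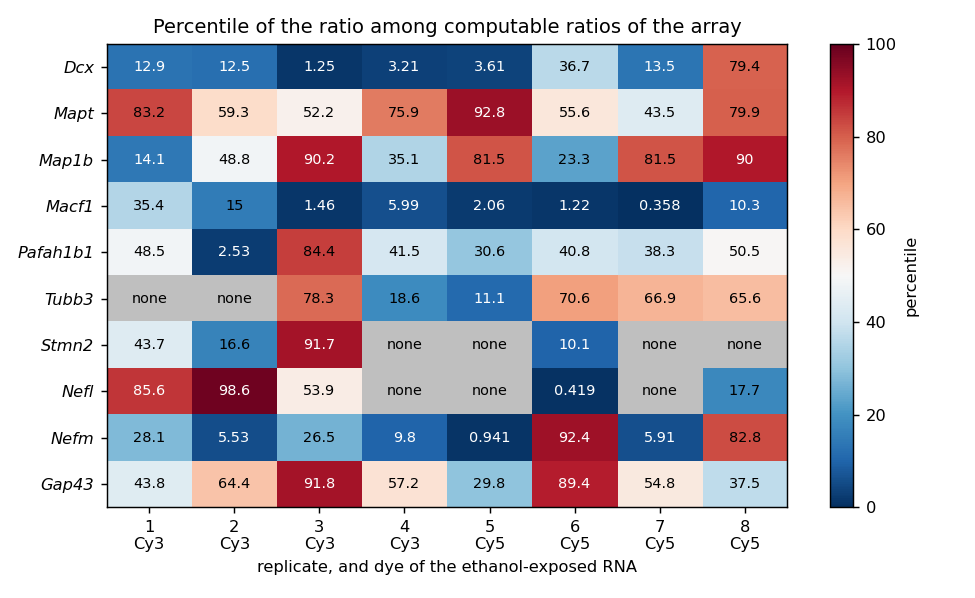
Percentile of each gene's ratio among the ratios of the same array that were not taken as missing, by replicate and by the dye of the exposed RNA. The lowest ratio is at 0, and grey marks a value taken as missing. Macf1 was below the 25th percentile on 7 arrays and Dcx on 6, whereas Nefm reached from the 0.941th percentile on replicate 5 to the 92.4th on replicate 6.

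Over the 7 tested probes the median shared part was -0.44, beside -0.06 for all 15345 probes, and 4 of the 7 were negative (57.1%), beside 53.9% of all probes. The 4 were Macf1, Dcx, Nefm and Pafah1b1, and the 3 on the other side were Mapt, Gap43 and Map1b. The genes thus did not lie on 1 side as a set. The median shared part ranged from -0.75 to -0.01 when single arrays were left out, the latter without replicate 2. In the shared part no probe of the whole table passed (0%, smallest adjusted p = 0.136), and 2132 probes (13.9%) had an unadjusted p under 0.05. Under robust regression 208 probes (1.36%) passed there, 1 of them among the 7, Macf1, whose shared part had chosen it.

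The genes were not chosen on the turning part, but Dcx and Macf1 were picked as low on most or all arrays. Such a choice leaves less room for a difference between the orientations, so that their result here is not independent of it. In the turning part 0 of the 7 passed with limma, where 1.56% of all tested probes did. None of the 7 had an unadjusted p under 0.05, where 13.8% did. Their adjusted p lay between 0.428 for Dcx and 0.947 for Pafah1b1. The median turning part was 0.12 for the 7 and 0.11 for all probes. The values ranged from -0.84 for Macf1 to 0.89 for Dcx, so that the 2 genes with the lowest shared parts had turning parts of opposite sign. A p above the threshold does not show that the orientations gave equal ratios: the intervals reach 1.91 for Dcx, 1.64 for Map1b and 1.94 for Nefm on the positive side, and -1.83 for Macf1 on the negative side.

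**Figure D3:**
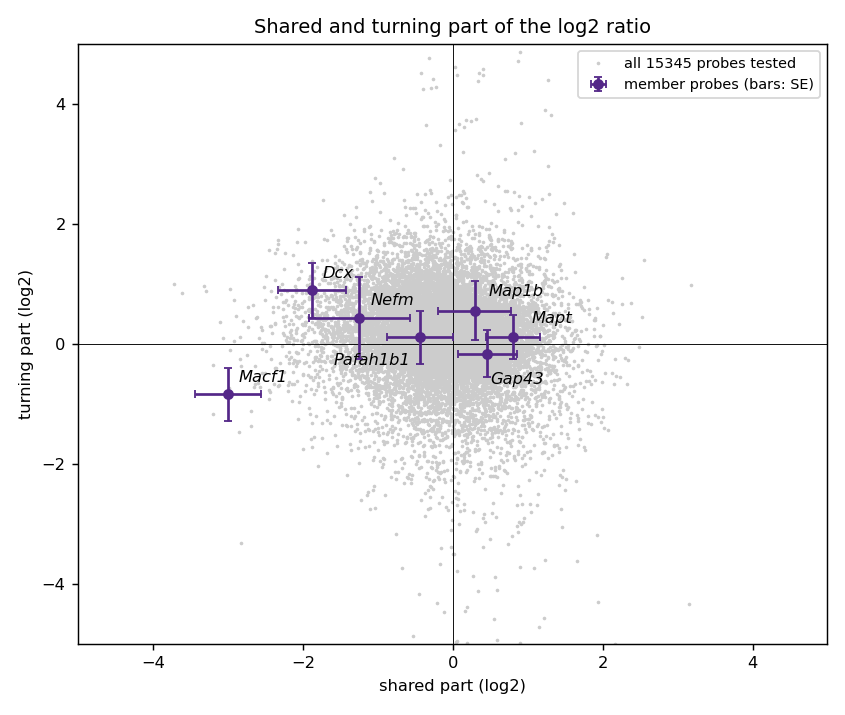
Shared part (x axis, log2) against turning part (y axis, log2) of the 7 tested genes, with bars for the SE of the fit, over all 15345 tested probes in grey, of which 58 lie outside the axes. Macf1, at -3.00 and -0.84, and Dcx, at -1.88 and 0.89, lie at the left of the cloud, and the other 5 lie closer to the middle.

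Other genes of the neuronal cytoskeleton were examined as a list of 84, of which 75 are on the array. They had 85 probes, and 76 of these, for 71 genes, could be tested. None of the 76 passed in the shared or in the turning part (limma). At an unadjusted p under 0.05 there were 17 in the shared part (22.4%, beside 13.9% of all probes), 7 positive and 10 negative, where 4.88% of all probes were positive and 9.01% negative at that p. There were 3 in the turning part (3.95%, beside 13.8%). The list was drawn up with earlier results of these data known, so that these shares and p-values are a description and support no excess. The median shared part of the 76 was 0.12, and 46 were positive and 30 negative (39.5%, beside 53.9% of all tested probes). The genes named below are those with the largest shared or turning part in each group, unless said otherwise, and none of them passed.

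The plakins, the family of Macf1, also had negative shared parts, on all 4 tested probes of 3 genes (53.9% of all tested probes were negative). Their median was -1.18 (-1.32 to -0.41 under the alternatives, the latter with the looser minimum of arrays, where 6 of 8 probes were negative). Without replicate 3, and without the r arrays, 3 of the 4 probes were negative. Plec, which encodes the linker plectin, had the largest, at -1.28 ± 0.55 (SE, n = 8; adjusted p = 0.344), and also the largest turning part, -0.71 ± 0.55 (adjusted p = 0.639). Dst, which encodes the spectraplakin closest to Macf1 in domain structure and is given because its family is so small, read -1.17 ± 0.40 (SE, n = 8; adjusted p = 0.257) on 1 probe and -0.40 ± 0.54 (SE, n = 7; adjusted p = 0.767) on the other. Evpl, the epithelial plakin envoplakin, read -1.19 ± 0.52 (SE, n = 8; adjusted p = 0.344). The shared part of Macf1 was lower than that of any of them. This difference was not tested, because Macf1 was selected on these values.

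Genes of kinesins, most of them motors that carry cargo along axonal microtubules towards the plus end, had a median shared part of -1.06 over 7 probes. Of these 4 were negative (57.1%, beside 53.9% of all tested probes). The highest was that of Kif2a, which is not such a motor, at 0.37 ± 0.43 (SE, n = 8; adjusted p = 0.727). Kif2a is also among the probes with values on all arrays. With only the 3 probes that had values on all 8 arrays the median was 0.11, and without replicate 1 it was -0.34 with 6 of 7 negative, so that neither sign nor size of this median is fixed. Kif5b, the conventional kinesin heavy chain, read -1.69 ± 0.39 (SE, n = 7; adjusted p = 0.179), with ratios of -0.84, -1.21, -0.60 and -2.36 with exposed RNA in Cy3 and -1.78, -3.30 and -1.30 with exposed RNA in Cy5. Kif1b, chosen after its values were seen, was below 0 on 8 of 8 arrays, between -0.36 and -2.22, with a shared part of -1.47 ± 0.29 (SE, n = 8; adjusted p = 0.141). Of the kinesins the light chain Klc1 had the largest turning part, at -0.78 ± 0.54 (SE, n = 7; adjusted p = 0.586).

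Tubulin probes were mostly on the other side of 0. Of 12 tested probes 9 had a positive shared part and 3 a negative one (25%, beside 53.9% of all tested probes). The median was 0.54, between 0.36 and 0.65 under all 18 alternatives. Tuba1c, an alpha-tubulin, read 1.75 ± 0.70 (SE, n = 8; adjusted p = 0.313). The largest turning part was that of a Tuba4a probe, 1.04 ± 0.57 (adjusted p = 0.467), whereas the second Tuba4a probe read -0.81 ± 0.89. Tubb4a, chosen after its values were seen, went against its family at -1.75 ± 0.42 (SE, n = 8; adjusted p = 0.179). Tubulin genes are close relatives, and the probe sequences were not used here, so that signal shared between them cannot be told apart.

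The 3 stathmins related to Stmn2 had a median shared part of 0.83. Stmn1, the stathmin of proliferating cells and progenitors, read 1.24 ± 0.43 (SE, n = 8; adjusted p = 0.263), and Stmn4 had the largest turning part, 0.70 ± 0.47 (adjusted p = 0.569). Among intermediate filaments the neuronal members Prph and Ina had negative shared parts, and the neuronal Nefh and the progenitor and glial members Vim and Nes positive ones. Prph, peripherin, read -1.34 ± 0.45 (SE, n = 8; adjusted p = 0.250), with a turning part of 1.50 ± 0.45 (adjusted p = 0.150). The others, given because the group has only 5 genes, read -1.15 ± 0.36 for Ina, 0.98 ± 0.32 for Vim, 0.77 ± 0.45 for Nes and 0.36 ± 0.40 for Nefh. Vim was above 0 on 8 of 8 arrays, between 0.01 and 2.06.

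The groups around Lis1, doublecortin and Gap43 had medians near 0, whose signs held under 14, 16 and 17 of the 18 alternatives. The 16 probes of dynein, dynactin and Lis1 partners had a median shared part of 0.03, led by Nde1, a Lis1 partner in mitosis and progenitor division, at 1.00 ± 0.36 (SE, n = 8; adjusted p = 0.268). The dynactin subunit Dctn1 had a turning part of 1.19 ± 0.36 (SE, n = 8; adjusted p = 0.161). The 10 probes of microtubule-associated proteins had a median of 0.09, with Map7 at 0.76 ± 0.42 in the shared part (adjusted p = 0.443) and 0.70 ± 0.42 in the turning part (adjusted p = 0.508). Of the 10, 4 were negative (40%, beside 53.9% of all probes). The lowest was Dclk1, named after its values were seen, at -0.76 ± 0.50 (SE, n = 8; adjusted p = 0.514). The 12 probes of growth cone and collapsin response proteins had a median of 0.17. There 1 of the 2 probes of Basp1 read 0.75 ± 0.39 in the shared part (adjusted p = 0.414), and Dpysl3 had the largest turning part, -1.12 ± 0.32 (SE, n = 8; adjusted p = 0.136). The 7 probes of microtubule severing and tubulin folding had a median of 0.08, with the severing subunit Katna1 at -1.30 ± 0.52 (adjusted p = 0.313) and the folding cofactor Tbcc at 0.70 ± 0.42 in the turning part (adjusted p = 0.513).

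**Figure D4:**
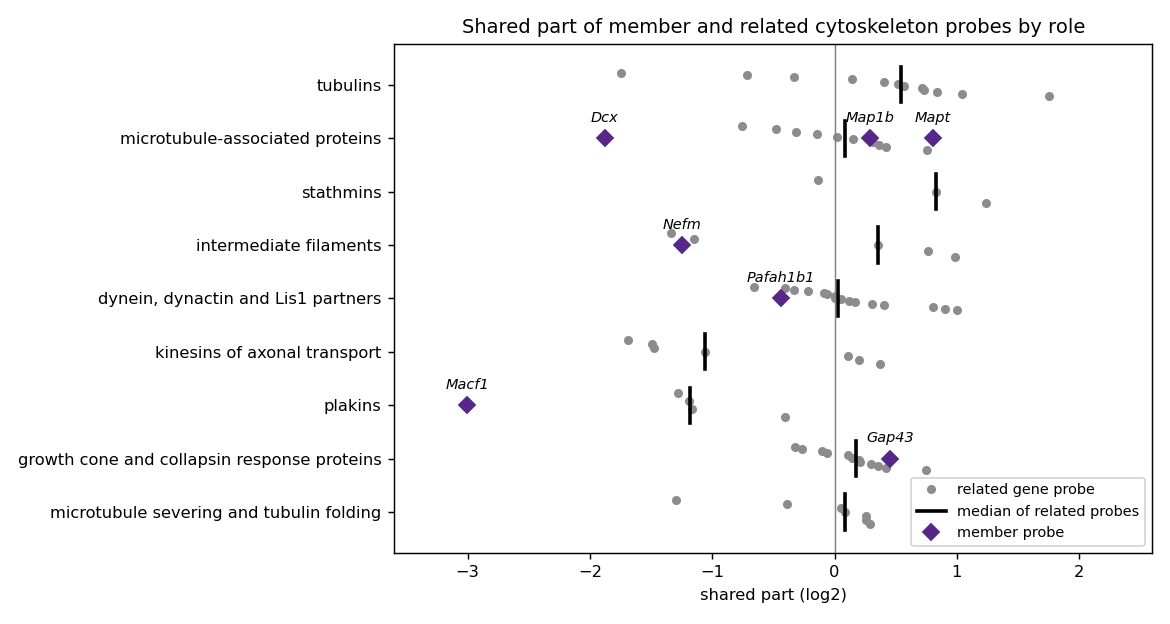
Shared part (log2) of the related cytoskeleton probes by role, as grey points with a black line at each group's median, and of the 7 tested list genes as purple diamonds. The 4 plakin probes lie below 0 beside Macf1, 9 of 12 tubulin probes lie above 0, and Dcx lies below every related microtubule-associated protein probe. Macf1 and Dcx were chosen for their low shared part.

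Markers of the cells these cultures can hold were read beside the cytoskeletal genes. Neuronal markers outside the cytoskeleton had a median shared part of -0.06 over 18 probes of 14 genes. Of these probes 10 were negative (55.6%, beside 53.9% of all tested probes), and the array medians ran from -1.39 to 0.76 with 3 of 8 below 0. Neural progenitor markers had a median of 0.19 over 12 probes, astrocyte markers -0.66 over 10 with 7 negative (70%), and oligodendrocyte lineage markers 0.16 over 9. Cell cycle genes had a median of 1.48 over 11 probes, 9 of them positive and 2 negative (18.2%), with array medians from -0.18 to 2.95. At an unadjusted p under 0.05 in the shared part (limma), 8 of the 11 were positive (72.7%, beside 4.88% of all tested probes) and 0 negative. This is a description, as the lists were drawn up with earlier results of these data known. Meningeal fibroblast, microglial and endothelial markers had medians of -0.21 over 2 probes, -0.52 over 3 and -0.14 over 5. No probe of these lists passed in either part. What the cell cycle and astrocyte values have to do with the low ratios of Dcx and Macf1 was not tested.

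The genes whose ratios followed Dcx and Macf1 most closely over the 8 arrays were looked up among 8679 other probes with values on all arrays, a description with no test in which high values are easily found among so many probes. For Dcx they were Gtf2h5, a subunit of a transcription and DNA repair factor, at a Pearson correlation of 0.959, the muscle glycogen synthase Gys1 at 0.946 and the co-chaperone gene Dnajb3 at 0.942. Gtf2h5 had ratios of -1.03, -1.20, -2.91 and -2.95 with exposed RNA in Cy3 and -1.45, 0.08, -0.10 and 2.84 with exposed RNA in Cy5, lowest on replicates 3 and 4 and highest on replicate 8, as for Dcx replicates 3 and 4 were the lowest and replicate 8 the highest. For Macf1 they were Ankra2 at 0.953, Mst1 at 0.938 and Dpep3 at 0.921. These had shared parts of 0.11, -0.07 and 0.56, so that they followed Macf1 from array to array without its low average. None of the 6 is a gene of the lists used here.

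Across the whole table, between 75.4% and 87.1% of probes per array had a ratio that was not taken as missing. Over the tested probes, which are not independent, the mean Pearson correlation between arrays was 0.293 within the Cy3 orientation, 0.211 within the Cy5 orientation and -0.084 between them, each array sharing its platform and its pair of conditions with the others.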

How the data were processed

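Total RNA from control and ethanol-exposed cultures was hybridised together on 8 arrays of 21582 probes, with 3DNA dendrimer labelling for Cy3 and Cy5, per the labels' protocols. Scanner, background correction and normalization: not given in the sources used here. Per probe and array, the authors deposited 1 log2 ratio, with no intensities, so that signal over background is unknown. The log2 scale was worked out from the table: after removal of an offset particular to each array, 100% of the low values were logs of whole multiples of 0.001, within 0.0015. Direction stays unknown. Exact zeros (2565 to 5200 per array) and each array's highest value (held by 108 to 464 probes) were taken as missing, and each array was centred on its median (-0.435 to 0.516 as deposited). The 15345 probes with 3 or more values in each of the 2 orientations were fitted with limma 3.58.1 (lmFit, eBayes; R 4.3.3) on the shared and turning parts, with Benjamini-Hochberg adjustment over all of them and a threshold of 0.05. Precision is limited by the number of arrays. The fit was also run on simulated independent noise with added shifts, which checks the code and not its calibration on these data. Names came from the platform annotation, updated by Entrez number through the GRCm38.p6 table (16635 probes with 1 symbol, 113 with several, 4834 with none; 15957 matched). The files name no build, so that no coordinates are given for probes or measured genes. Those of the 2 upstream windows are RefSeq's. The 10 genes and the lists were chosen with earlier results of these data known. Named were all probes of the 10 genes, the related probes that passed or had the largest shared or turning part of their group, and the 3 genes most correlated with Dcx and with Macf1. Replicate numbers are not shared between the orientations. Alternatives were other centring, scaling, missing-value rules, array minimums, robust fits, leaving out arrays, and a block on the code number in the array labels.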

Additional observations from a re-analysis of the deposited data

Results flagged for a closer look

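Among 15 sets of 4 values tested for a lone extreme (chance marks about 1 in 20), Map1b on replicate 6, at -1.19, and Tubb3 on replicate 5, at -1.76, stood apart from the other Cy5 arrays. The Dixon gap shares were 0.84 for Map1b and 0.884 for Tubb3. Nefl averaged 2.04 over 3 arrays with exposed RNA in Cy3 and -3.49 over 2 with exposed RNA in Cy5. Every value of an orientation that was not taken as missing lay on the same side of 0. That difference did not enter the fit with the minimum of 3 arrays, and with 2 arrays it did not pass (limma, adjusted p = 0.237).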

How the results depend on the processing

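None of the 7 genes passed in the turning part under any of the 18 alternatives, with adjusted p from 0.168 upwards. The shared parts of Macf1 (-3.30 to -2.74) and Dcx (-2.24 to -1.55) kept their sign in all 18, and those of Mapt, Nefm, Gap43 and Pafah1b1 did too, while Map1b changed sign in 2. The turning part of Gap43 changed sign as deposited (0.153), with exact zeros kept (0.079), without the r arrays (0.198) and among the fits without 1 array (-0.456 to 0.061). That of Pafah1b1 did so under robust regression (-0.0747) and without 1 array (-0.324 to 0.417), that of Mapt without the r arrays (-0.0307) and without 1 array (-0.143 to 0.300), and that of Nefm without 1 array (-0.0978 to 1.02). None of these was past the threshold, and the cause was not tested. The number of probes called in the turning part over the whole table was 239, against 417 as deposited (312 positive, where centring gave 118), 748 under robust regression, 84 without the r arrays and 144 to 192 without single arrays, of which leaving out replicate 4 or 6 gave 155 and replicate 8 gave 144. Without centring, the median turning part over the whole table was 0.42 in place of 0.11. Under robust regression 3 related probes passed in the shared part (Kif1b at -1.41, Dst at -1.40 and Tubb4a at -2.08) and 2 in the turning part (Klc1 at -1.35 and Dpysl3 at -1.19), where least squares called 0 in each. Over the whole table that fit called 208 probes (1.36%) in the shared and 748 (4.87%) in the turning part. Under the other 17 alternatives no related probe passed in either part. With arrays that share a code number (3, 5 and 1) as a replicate block, 243 probes were called, and Dcx had a turning part of 0.89 (adjusted p = 0.425). The deviations of such arrays had correlations of 0.014, -0.016 and 0.044, and the consensus correlation was 0.0089. Of the 7 genes Mapt had the narrowest 95% interval of the turning part, from -0.69 to 0.92, and with no intensities deposited the brightness of a probe is unknown.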
